A study of Capra hircus with 6 samples.

Results

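The genes described here encode the machinery that builds, fills and moves melanosomes, the pigment organelles of melanocytes. They were chosen by name: subunits of the BLOC, AP-3, AP-1 and HOPS complexes, RAB proteins and their effectors, motors and fusion proteins. Of 40 listed symbols, 39 occur among the 26951 named genes of the table, while STX13 is absent and was skipped. Skin with its hair follicles was taken from goats of a Boer by Macheng Black cross, black on the head and white on the body. The black-coated region gave 3 libraries (replicates 1 to 3) and the white-coated region gave 3 (replicates 4 to 6), made from total RNA depleted of ribosomal RNA. The labels give no treatment, age or genotype. They do not state the number of goats either, so each p-value reflects the spread among these libraries alone, whatever mix of animals and technical steps it holds. The labels do not name the body site of each library. In this coat pattern black lies on the head and white on the body, so coat colour and site cannot be told apart.

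A melanosome develops from endosomes. The adaptor complexes AP-3 and AP-1 sort enzymes such as tyrosinase, BLOC-1 helps form the tubules that carry them, BLOC-2 directs the tubules to the organelle, and BLOC-3 activates RAB32 and RAB38, which act in these carriers. The filled organelle is held at the cell edge by RAB27A, melanophilin (MLPH) and myosin Va (MYO5A), and pigment then passes to keratinocytes. Loss of BLOC-2, BLOC-3 or AP-3 subunits causes Hermansky-Pudlak syndrome in people, and loss of RAB27A, MLPH or MYO5A causes Griscelli syndrome. Most of these proteins also serve lysosomes or recycling in other cells.

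Between 12648817 and 22085079 reads per library fell on named genes. Levels are in CPM, counts scaled to library size with TMM (edgeR's correction for composition), and a ± gives the SD over 3 libraries. Values listed per library follow the replicate order, 1 to 3 for the black coat and 4 to 6 for the white. Differences are log2 of black over white. Black replicate 1 stood apart: hair shaft and inner root sheath markers (12 of 23 found) summed to 1001, 15682 and 20155 CPM across the black libraries, against 14371, 17432 and 16068 CPM across the white ones. Melanocyte markers (12 of 12 found, each with a higher black-coated mean) summed to 175, 1039 and 1259 CPM in the black libraries, against 115, 101 and 92.5 CPM in the white. Most of the white sum was MITF, at 96.2, 82.9 and 88.9 CPM in the black libraries, against 84.97, 78.8 and 65.96 CPM in the white, with overlap. TYRP1 read 10.3, 269 and 357 CPM in the black libraries, against 0.0569, 0.0587 and 0.142 CPM in the white. TYR and MLANA had 0 reads in every white library, which allows up to 0.0615 CPM at 3 reads over the group, counting error only. In bulk skin, fewer melanocytes and less RNA per melanocyte cannot be told apart. LOC108634721 is Y-linked by its description in the table, with 1, 688 and 0 reads in the black libraries, against 934, 801 and 767 in the white, so at least 2 animals gave the black-coated libraries, and 2 of these 3 differ in this respect from every white-coated one.

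None of the machinery genes passed the test. All 39 had enough reads, and 0 of 39 differed by coat colour in edgeR's quasi-likelihood test at an adjusted p of 0.05, where the background was 0% of 15778 genes. At an unadjusted p of 0.05 it was again 0 of 39, against 3.4% of all genes (1.65% higher and 1.75% lower with a black coat). DESeq2 called 0 of 39 against 0.494% of all genes, and limma-voom called 0 of 39 against 0%. Leaving out 1 library at a time also gave 0 of 39, against 0.0999% of all genes without black replicate 1, 0.0369% with black replicate 2 omitted, 0.00625% with white replicate 4 omitted and 0% for each of the other 3.

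The estimates leaned slightly to the black side. For 30 of the 39 genes the log2 difference was above 0, against 53% of all genes tested, and the median was 0.16, against 0.02 for all genes. For 29 genes (74.4%, against 54.3% of all genes) the 95% interval, not adjusted for the number of genes, lay within 1 log2 unit of 0. It reached further for BLOC1S2, HPS3, HPS6, RAB32, RAB38, VPS18, MLPH, MYO5A, MYO7A and RAB17.

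**Figure D1:**
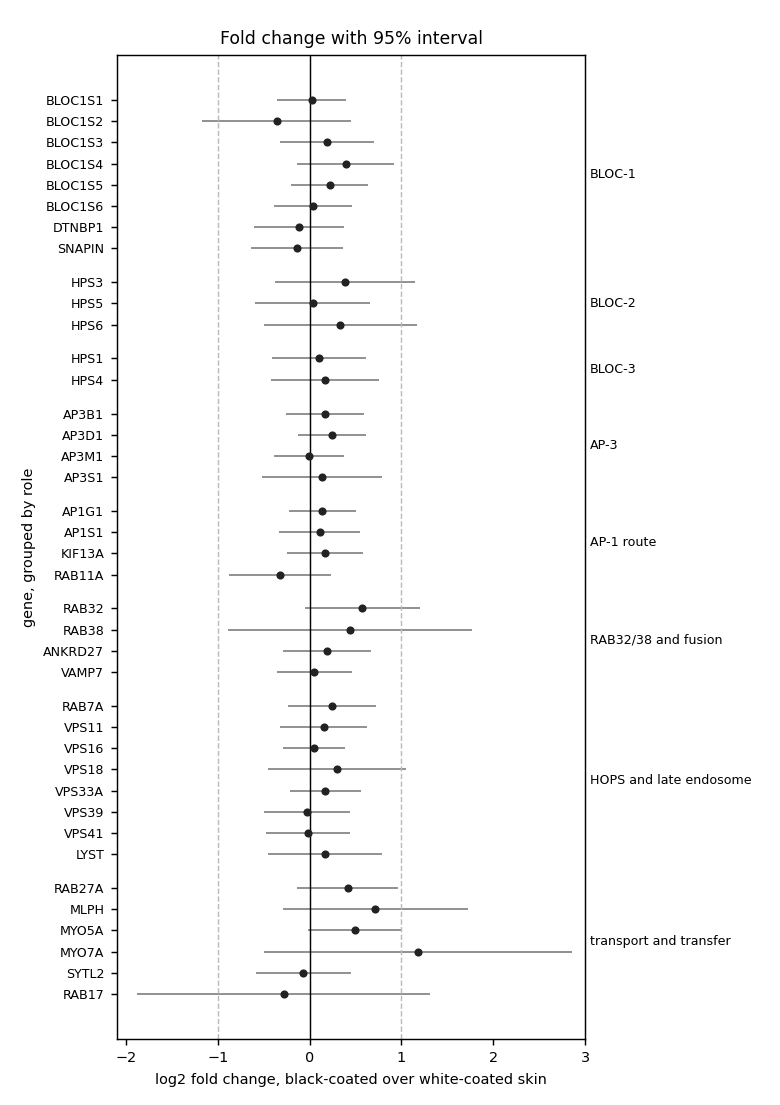
Log2 fold change of black-coated over white-coated skin (x axis) for the 39 genes, grouped by role down the page. Points are edgeR estimates, bars unadjusted 95% intervals and dashed lines 1 log2 unit either side of 0; all 39 intervals include 0, and the widest are those of MYO7A, RAB17 and RAB38.

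Steadiness from library to library differed between the genes. The highest library exceeded the lowest by under 1.5-fold for 16 genes and by over 2-fold for 10. The shares of all genes within these limits were not counted. VPS16, a HOPS core subunit, was the steadiest of the 39 at 1.09-fold, and MYO7A the most variable at 6.19-fold. The median SD of log2 CPM over the 6 libraries was 0.24 for these genes and 0.34 for all genes tested. These sets were not matched for level. Black replicate 1 was the highest library for 14 genes (35.9%, against 30.3% of all genes) and the lowest for 7 (17.9%, against 30.3%).

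**Figure D2:**
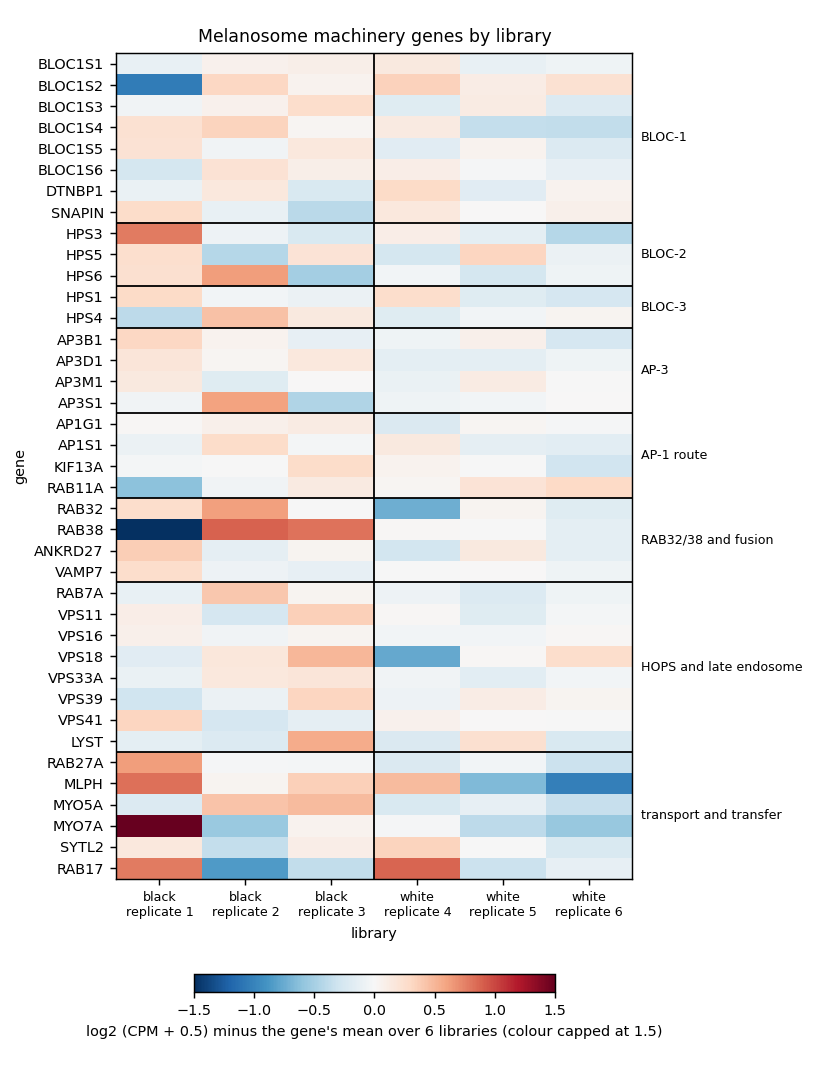
Level of each gene (rows, by role) in each library (columns), as log2 (CPM + 0.5) minus the gene's mean over the 6 libraries, with colour capped at 1.5. Most rows are pale; RAB38 and BLOC1S2 are lowest, and MYO7A and HPS3 highest, in black replicate 1.

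BLOC-1, which shapes cargo tubules, had 5 subunits with a positive and 3 with a negative difference, from -0.36 to 0.39. BLOC1S1 averaged 51.5 ± 3.9 CPM with a black coat and 50.8 ± 4.94 CPM with a white coat. SNAPIN averaged 35.6 ± 8.65 CPM with a black coat and 39.1 ± 2.16 CPM with a white coat. Both of these subunits are shared with BORC, a complex that positions lysosomes. DTNBP1 averaged 22.6 ± 3.17 CPM with a black coat and 24.5 ± 3.99 CPM with a white coat, and it encodes dysbindin. BLOC1S6 averaged 60.4 ± 10.1 CPM with a black coat and 58.9 ± 4.55 CPM with a white coat. This is pallidin, which binds a syntaxin, and BLOC1S5 is muted, named after a mouse coat mutant. BLOC1S5 averaged 27.96 ± 2.71 CPM with a black coat and 24.04 ± 2.4 CPM with a white coat. BLOC1S3 averaged 14.7 ± 1.69 CPM with a black coat and 12.9 ± 1.77 CPM with a white coat. Groups overlapped for each of these 6 subunits. BLOC1S4 read 20.7, 22.4 and 18.01 CPM in the black libraries, against 19.4, 13.7 and 13.5 CPM in the white, a difference of 0.39 (SE 0.23), and white replicate 4 lay among the black values. BLOC1S2 read 12.7, 33.5 and 27.8 CPM in the black libraries, against 34.3, 29.02 and 31.6 CPM in the white. Its low black mean came from replicate 1: the difference was -0.36 (SE 0.34) with that library and -0.05 (SE 0.18) without it.

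BLOC-2 comprises HPS3, HPS5 and HPS6, all 3 with a positive difference, from 0.03 to 0.38. HPS3 read 29.9, 16.3 and 14.6 CPM in the black libraries, against 18.4, 15.5 and 12.6 CPM in the white. Only black replicate 1 exceeded the white range, and the difference of 0.38 became -0.01 without it. HPS6 averaged 8.78 ± 3.44 CPM with a black coat and 6.95 ± 0.633 CPM with a white coat, black replicate 3 being the lowest of all 6 libraries. BLOC-3, the exchange factor of RAB32 and RAB38, had overlapping groups for both subunits. HPS1 averaged 33.2 ± 4.99 CPM with a black coat and 30.9 ± 6.44 CPM with a white coat. HPS4 averaged 21.6 ± 6.09 CPM with a black coat and 19.2 ± 1.53 CPM with a white coat.

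AP-3, which moves tyrosinase out of early endosomes, held 1 of the 2 genes whose groups did not overlap. AP3D1, the large delta subunit, read 174, 157 and 172 CPM in the black libraries, against 139, 139 and 147 CPM in the white. Each black library exceeded each white one, and the fitted difference between the groups was 0.24 (SE 0.16, edgeR unadjusted p = 0.17), and leaving out any library gave 0.21 to 0.28. The beta, mu and sigma subunits overlapped between the coats. AP3B1 averaged 75.04 ± 11.7 CPM with a black coat and 66.9 ± 7.37 CPM with a white coat. AP3M1 averaged 67.3 ± 7.71 CPM with a black coat and 67.9 ± 5.21 CPM with a white coat. AP3S1 averaged 40.6 ± 15.5 CPM with a black coat and 36.9 ± 0.983 CPM with a white coat. The other gene without overlap was RAB27A. These 2 of 39 genes with all black libraries higher (5.13%) compare with 3.81% of all genes tested, and 0 of 39 with all black libraries lower compare with 4.99%.

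On the AP-1 route, AP-1 and the kinesin KIF13A position recycling endosomes that RAB11A marks. AP1G1 averaged 112 ± 4.2 CPM with a black coat and 102 ± 8.93 CPM with a white coat. AP1S1 averaged 35.4 ± 4.94 CPM with a black coat and 32.8 ± 3.997 CPM with a white coat. KIF13A averaged 76.9 ± 9.41 CPM with a black coat and 68.6 ± 8.38 CPM with a white coat. Groups overlapped for the 2 AP-1 subunits and for the kinesin. RAB11A read 112, 165 and 187 CPM in the black libraries, against 174, 197 and 209 CPM in the white, a difference of -0.32 (SE 0.23). Black replicate 1 was its lowest library and black replicate 3 lay within the white range.

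RAB38 and RAB32 are close relatives, and ANKRD27, also called VARP, is an effector of both that binds the fusion protein VAMP7. RAB38 read 15.6, 87.3 and 82.97 CPM in the black libraries, against 47.6, 46.8 and 42.5 CPM in the white (difference 0.44, SE 0.56, edgeR unadjusted p = 0.457). Black replicate 1 was the lowest of the 6 libraries and black replicates 2 and 3 the highest, so the groups overlapped. Without black replicate 1 the RAB38 difference was 0.90 (SE 0.14, edgeR unadjusted p = 2.39e-04, adjusted p = 0.12), in a comparison where 4.77% of all genes were higher at an unadjusted p under 0.05. It was 0.11 without black replicate 2 and 0.18 without black replicate 3. Over all alternatives the RAB38 difference ran from 0.10 in limma-voom to 0.94 with Y-linked reads as a term. The fit with that term leaves black replicate 2 as the only black library beside the white ones. White-coated skin held RAB38 RNA at 45.6 ± 2.73 CPM where TYR had 0 reads. Among the black libraries, replicate 1 was also lowest for the summed melanocyte and hair shaft markers given above, and their part in the RAB38 levels was not tested.

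RAB32 read 34.9, 44.7 and 29.1 CPM in the black libraries, against 17.3, 30.02 and 25.6 CPM in the white (difference 0.57, SE 0.27, edgeR unadjusted p = 0.0677). Black replicate 3 fell below white replicate 5, so the groups overlapped. RAB32 is also known from macrophages, whose markers (11 of 13 found, 11 of these with a higher black-coated mean, none at 0 reads throughout a coat) summed to 2869, 1181 and 423 CPM in the black libraries, against 747, 607 and 622 CPM in the white. Their part in the RAB32 difference was not tested. ANKRD27 averaged 61.8 ± 11.5 CPM with a black coat and 54.2 ± 8.46 CPM with a white coat. VAMP7 averaged 36.7 ± 5.64 CPM with a black coat and 35.4 ± 1.05 CPM with a white coat. STX12, the current symbol of the skipped syntaxin 13, was looked up after the other values were seen and read 57.7, 60.4 and 57.5 CPM in the black libraries, against 64.8, 68.6 and 64.5 CPM in the white (difference -0.17, SE 0.14), with no overlap.

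HOPS tethers late endosomes, RAB7A recruits tethers to them, and LYST, lost in Chediak-Higashi syndrome, governs lysosome size. Of these 8 genes 6 had a positive and 2 a negative difference, from -0.03 to 0.30. RAB7A averaged 303 ± 56.8 CPM with a black coat and 257 ± 13.4 CPM with a white coat. VPS11, VPS16, VPS18 and VPS33A form the core of HOPS, which another tether shares, and VPS39 and VPS41 belong to HOPS itself. VPS11 averaged 43.2 ± 9.11 CPM with a black coat and 38.9 ± 2.79 CPM with a white coat. VPS16 averaged 46.9 ± 2.15 CPM with a black coat and 45.4 ± 1.12 CPM with a white coat. VPS33A averaged 37.7 ± 3.997 CPM with a black coat and 33.5 ± 1.49 CPM with a white coat. VPS18 was more variable, with white replicate 4 its lowest library. VPS18 averaged 24.3 ± 5.68 CPM with a black coat and 19.8 ± 6.77 CPM with a white coat. VPS39 averaged 85.7 ± 19.3 CPM with a black coat and 87.4 ± 5.58 CPM with a white coat. VPS41 averaged 50.5 ± 11.3 CPM with a black coat and 51.1 ± 1.54 CPM with a white coat. Groups overlapped for all 6 HOPS subunits. LYST read 50.2, 48.3 and 82.02 CPM in the black libraries, against 47.8, 66.1 and 47.5 CPM in the white, and its high value in black replicate 3 was not shared by the other black libraries.

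**Figure D3:**
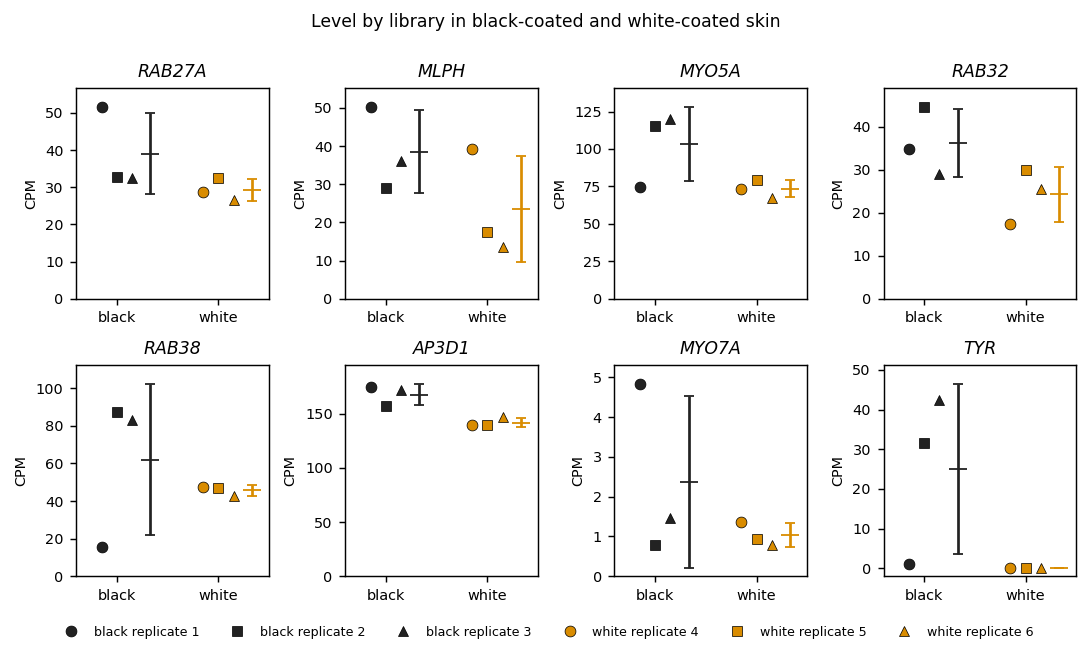
CPM (y axes, from 0 apart from TYR) of 7 machinery genes and of TYR in each library, black-coated skin at left and white-coated skin at right; symbols mark replicates and the bar beside them mean ± SD. RAB38 and MYO5A are highest in black replicates 2 and 3, RAB27A, MLPH and MYO7A in black replicate 1, and TYR is at 0 in all white libraries.

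Of the 6 genes of transport and transfer 4 had a positive and 2 a negative difference, from -0.28 to 1.18. RAB27A, the GTPase on the melanosome membrane, read 51.7, 32.8 and 32.6 CPM in the black libraries, against 28.7, 32.5 and 26.6 CPM in the white (difference 0.42, SE 0.23, edgeR unadjusted p = 0.118). The groups did not overlap, but black replicates 2 and 3 lay within 1 CPM of white replicate 5. Without black replicate 1 the RAB27A difference was 0.16 (SE 0.17), and without each of the other libraries it ran from 0.35 to 0.53. RAB27A also serves granules of mast cells and cytotoxic T cells. Mast cell markers (6 of 8 found, all of these with a higher black-coated mean) summed to 275, 35.3 and 25.2 CPM in the black libraries, against 96.6, 49.1 and 32.8 CPM in the white. T and NK cell markers (11 of 12 found, 4 with a higher black-coated mean) summed to 89.4, 20.4 and 20.96 CPM in the black libraries, against 62.5, 37.4 and 32.02 CPM in the white. No marker found in either list was at 0 reads throughout a coat, and their part in the RAB27A level of black replicate 1 was not tested.

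MYO5A, the actin motor, had the lowest unadjusted p of the 39 genes. It read 74.7, 116 and 119.8 CPM in the black libraries, against 73.4, 79.1 and 67.6 CPM in the white (difference 0.49, SE 0.22, edgeR unadjusted p = 0.0559). Black replicate 1 lay within the white range and the other 2 black libraries above it. Without black replicate 1 the MYO5A difference was 0.68 (SE 0.14, edgeR unadjusted p = 0.00126, adjusted p = 0.229), where 4.77% of all genes were higher at an unadjusted p under 0.05. Without black replicate 2 it was 0.40, and without black replicate 3 0.38. Black replicates 2 and 3 were the 2 highest libraries for 6 of the 39 genes, HPS4, AP1G1, RAB38, RAB7A, VPS33A and MYO5A, and for 10.7% of all genes tested.

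MLPH, which links RAB27A to MYO5A, read 50.3, 29.04 and 36.2 CPM in the black libraries, against 39.3, 17.6 and 13.6 CPM in the white (difference 0.71, SE 0.43, edgeR unadjusted p = 0.139). White replicate 4 lay among the black libraries and the other 2 white libraries below all of them. Without white replicate 4 the MLPH difference was 1.30 (SE 0.31, edgeR unadjusted p = 0.00619, adjusted p = 1), where 1.74% of all genes were higher at an unadjusted p under 0.05. It was 0.47 when black replicate 1 was omitted, 0.54 when white replicate 5 was and 0.43 when white replicate 6 was. With Y-linked reads as a term the MLPH difference was 0.31, with black replicate 2 the only black library beside the white ones. MLPH is also known from glandular epithelium. Sweat gland markers (12 of 12 found, 8 with a higher black-coated mean, none at 0 reads throughout a coat) summed to 4040.3, 2156 and 956 CPM in the black libraries, against 614, 448 and 379 CPM in the white. Epidermis markers (12 of 13 found, 0 with a higher black-coated mean, none at 0 reads throughout a coat) summed to 2043, 6634 and 10118 CPM in the black libraries, against 11747, 7388 and 5692 CPM in the white. Across the white libraries both lists ran in the order of MLPH, as did the melanocyte, mast cell and T and NK cell sums given above. The same order held for B and plasma cell markers, at 18.4, 9.81 and 8.93 CPM. Of these, 8 of 8 were found, 7 with a higher black-coated mean and TNFRSF17 at 0 reads in the white libraries. Across the black libraries the sweat gland, epidermis, melanocyte and mast cell sums did not run in the order of MLPH. The T and NK cell sums did, as did the B and plasma cell sums, at 68.1, 6.38 and 42.8 CPM. MUCL1 alone gave 3047, 1721 and 395 CPM of the black sweat gland sums. With each sweat gland marker weighted equally, the mean log2 level relative to the 6-library mean was 0.84, 0.27 and 0.40 in the black libraries. That is the order of MLPH. The part of any of these lists in the MLPH levels was not tested.

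SYTL2, a RAB27A effector that docks vesicles at the plasma membrane, averaged 58.5 ± 10.8 CPM with a black coat and 61.4 ± 12.2 CPM with a white coat. RAB17, which acts in melanosome release from mouse melanocytes, had few reads: 49, 11 and 30 in the black libraries, against 66, 23 and 23 in the white, a difference of -0.28 (SE 0.68). RAB17 and MLPH are neighbours in the ARS1.2 annotation with 1 gene, PRLH, between them. Black replicate 1 and white replicate 4 were the 2 highest libraries for both, as for the mast cell and T and NK cell sums given above. The same held for skeletal muscle markers (8 of 11 found, 4 with a higher black-coated mean, MYLPF at 0 reads in the white libraries). These summed to 270, 99.7 and 147 CPM in the black libraries, against 363, 177 and 183 CPM in the white. Whether position plays a part in the levels of RAB17 and MLPH was not tested. MYO7A, a myosin that moves melanosomes in the retinal pigment epithelium of mice, had 68, 11 and 34 reads in the black libraries, against 24, 16 and 11 in the white. Its difference of 1.18 (SE 0.71) was the highest of the 39, and without black replicate 1 it was 0.15 (SE 0.52).

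Levels of different genes were compared per length, as deposited FPKM summed over the transcripts of a gene and averaged over the 6 libraries. RAB7A was the highest of the 39 at 119 FPKM, before BLOC1S1 at 76.7 and RAB11A at 61.5 FPKM, and MYO7A the lowest at 0.15 FPKM, with a median of 10.5 FPKM. The median over all genes tested was 5.76 FPKM. RAB38 at 31.5 and RAB32 at 20.2 FPKM stood above the transport genes in these averages, of which MLPH stood at 9.77, RAB27A at 9.57 and MYO5A at 5.48 FPKM. That order did not hold in every library: in black replicate 1 RAB38 stood at 10.98 FPKM, below MLPH, RAB27A and SYTL2, and in white replicate 4 RAB32 stood at 11.8 FPKM, below MLPH and SYTL2. RAB38 averaged 36.1 ± 21.9 FPKM with a black coat and 26.9 ± 2.64 FPKM with a white coat.

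Subunits of the same complex differed in RNA level. In BLOC-1 the highest subunit, BLOC1S1, exceeded the lowest, BLOC1S3 at 3.46 FPKM, by 22.2-fold. The 6 HOPS subunits spanned 3.32-fold, from VPS18 at 4.23 to VPS39 at 14.1 FPKM. The 4 AP-3 subunits lay within 1.69-fold, from AP3B1 at 14.3 to AP3S1 at 24.3 FPKM. In BLOC-3 HPS1 exceeded HPS4 by 2.37-fold. The BLOC-2 subunits were scarce, from HPS6 at 2.1 to HPS5 at 3.13 FPKM, and lay below every AP-3 subunit in every library.

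**Figure D4:**
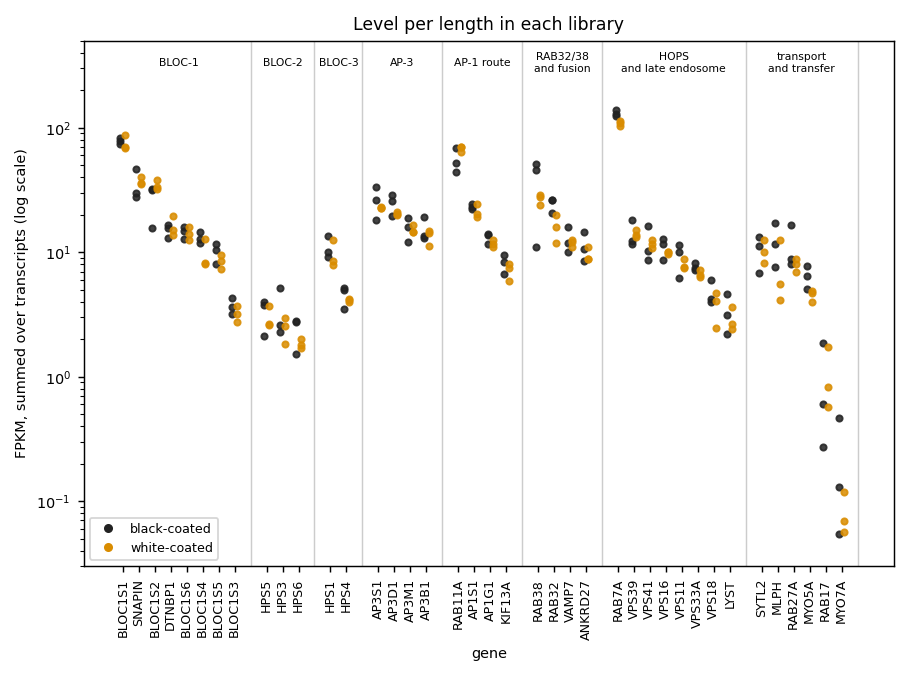
FPKM of each gene summed over its transcripts (y axis, log scale) in each library, black-coated at left and white-coated at right of each position, with genes ordered by level within a role. RAB7A, BLOC1S1 and RAB11A lie at the top, the BLOC-2 subunits low, and MYO7A and RAB17 at the bottom.

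Of the 39 genes 22 had several transcript rows, whose read counts were nearly equal: in 18 of the 22 the lowest row held at least 90% of the highest. Transcript use could therefore be read only from the deposited FPKM, which splits reads between transcripts. The share held by the leading transcript, the one with the highest mean FPKM, was computed for 21 genes. It did not overlap between the coats for 2 of them, HPS5 and AP3M1, against 9.53% of 6393 genes, a like share.

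HPS5, a BLOC-2 subunit, had the widest gap and was picked out after its values were seen. Its leading transcript stood at 3.98, 2.12 and 3.77 FPKM in the black libraries, against 0.989, 1.62 and 1.53 FPKM in the white. The other transcript stood under 0.001 FPKM in each black library, against 1.6, 2.06 and 1.12 FPKM in the white. The leading share was above 99.9% in each black library, against 38.2, 44.1 and 57.8% in the white; no test is given, since the gene was picked for this gap. A gap of this size or more occurred in 14 of the 6393 genes, HPS5 included. Both HPS5 rows carry the same read counts in every library, so the counts do not show this difference, and the gene averaged 22.3 ± 5.5 CPM with a black coat and 21.9 ± 4.82 CPM with a white coat. For AP3M1 the leading share was 87.5, 95.2 and 88.7% in the black libraries, against 98.3, 97.3 and 100% in the white.

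Black replicate 1 also stood apart in the transcripts of 2 transport genes. The leading RAB27A transcript held under 0.001% of the gene's FPKM there, where another held 83.6%, and between 35.2% and 51.1% in the other 5 libraries. The leading MYO5A transcript held 24.97% in black replicate 1 and between 61.4% and 80.2% in the other 5.

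**Figure D5:**
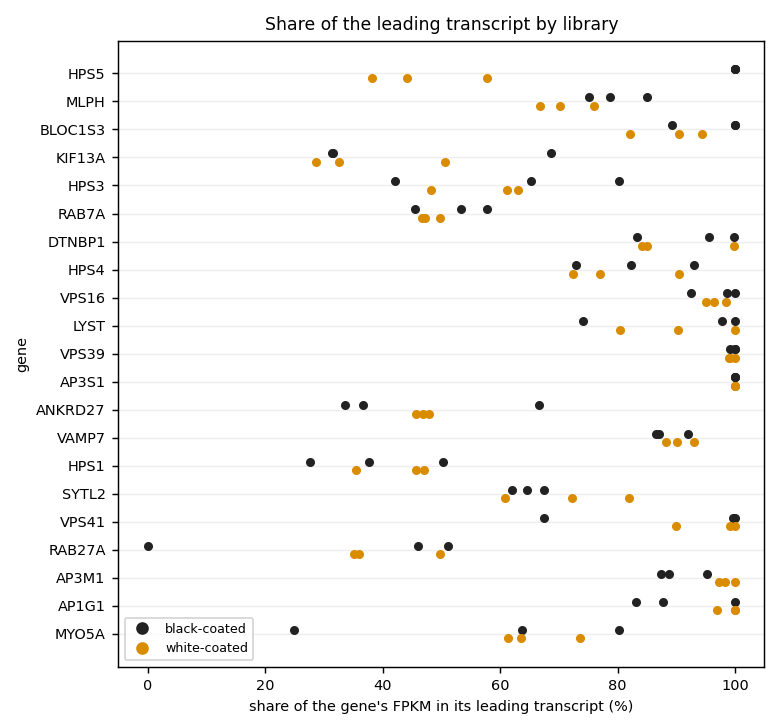
Share of a gene's deposited FPKM held by its leading transcript (x axis, in %) for 21 genes with several transcripts, one point per library, with genes ordered by the difference of black minus white. HPS5 shows a wide gap, with white-coated libraries at 38.2% to 57.8% and black-coated ones at the right edge.

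A further list covered other adaptors, tethers, fusion proteins, lipid kinases, RAB proteins, effectors, motors and BORC subunits. Of 52 genes found 50 were tested, and 0 passed at an adjusted p of 0.05 in edgeR. The difference was positive for 27 and negative for 23, with a median of 0.04. At an unadjusted p of 0.05 the count was 2 of 50 (4%), near the 3.4% of all genes. AP1B1, the beta subunit of AP-1, read 76.3, 109 and 103 CPM in the black libraries, against 67.05, 60.7 and 64.9 CPM in the white (difference 0.58, SE 0.18, edgeR unadjusted p = 0.0156). AP1M1, a mu subunit of AP-1, read 82.4, 77.9 and 67.3 CPM in the black libraries, against 59.6, 53.1 and 53.8 CPM in the white (difference 0.45, SE 0.16, edgeR unadjusted p = 0.0236). Neither gene overlapped between the coats. The gamma and sigma subunits named above, AP1G1 and AP1S1, differed by 0.14 (SE 0.15) and 0.11 (SE 0.19), and the remaining AP-1 subunits of the list by 0.06 for AP1G2, -0.0057 for AP1M2, -0.14 for AP1S3 and -0.20 for AP1S2.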

How the data were processed

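The table holds read counts and FPKM per transcript row, as the authors deposited them; per the file headers these are counts of reads and FPKM values for 6 libraries. Bowtie2 2.0.6, HISAT2 and Cufflinks appear in the submitters' processing notes with no role; the counting program, build and strand setting are not known here, so overlapping and antisense genes cannot be told apart. Of 53266 rows, 189 without a gene name (0.00376% to 0.0675% of a library) and 1770 of transfer RNA were left out. Each gene was represented by its row with the highest total, since a gene's rows repeat reads.

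edgeR 4.0.16 (R 4.3.3) was run with filterByExpr, TMM (factors 0.872 to 1.12), robust quasi-likelihood and Benjamini-Hochberg adjustment over all genes tested; the biological coefficient of variation was 37.3%. The SE is the log2 difference over the square root of F. DESeq2 1.42.0 and limma 3.58.1 served as alternatives, with other scalings, filters and transcript rows, a Y-linked term and left-out libraries. FPKM was summed over transcripts, not taken from the counted row as planned, because that row often held almost none of a gene's FPKM; shares needed at least 1 FPKM per gene in every library.

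Members and lists were chosen with earlier results of these data known. The rule for values per library covered genes called, or without overlap, or at an unadjusted p under 0.05, and RAB27A, MLPH, MYO5A, RAB32 and RAB38; BLOC1S2, BLOC1S4, HPS3, RAB11A, LYST, RAB17, MYO7A and all transcript shares were added after their values were seen. All 39 transcripts matched the ARS1.2 annotation.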

Additional observations from a re-analysis of the deposited data

How the results depend on the processing

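No paired analysis was possible because replicates 1 to 3 and 4 to 6 share no number. The 39 machinery genes had 0 calls under each of 19 alternatives, and 17 of 39 kept the sign of their difference in all 19. The other 22 turned in at least 1. Leaving the Y-linked term aside, BLOC1S4, RAB32, RAB38, MLPH, MYO5A and MYO7A reached an unadjusted p under 0.05 in at least 1 alternative. The share of all genes that did so in at least 1 alternative was not counted. This list therefore does not set the machinery genes apart from all genes. Between 24 and 33 genes had a positive difference, and the median ran from 0.08, with Y-linked reads as a term, to 0.19. Counted over all genes, 0 were called in edgeR and 78 by DESeq2, and 0 to 16 when 1 library was left out, with 16 without black replicate 1, 6 without black replicate 2 and 1 without white replicate 4; the cause was not tested. With the Y-linked term, which leaves black replicate 2 as the only black library beside the white ones, the sign turned for BLOC1S2 (0.082), DTNBP1 (0.092), HPS5 (-0.45), HPS1 (-9.86e-04), ANKRD27 (-0.057), VAMP7 (-0.062), VPS11 (-0.20), VPS16 (-0.028), LYST (-0.15) and MYO7A (-0.38). With scaling by library totals it turned for AP3M1 (0.027) and VPS41 (0.028). With limma-trend on log2(FPKM + 1) it turned for AP3M1 (0.020). With limma-trend on log2(FPKM + 0.1) it turned for AP3M1 (0.020). Leaving out 1 library turned the sign within these ranges: HPS3 -0.0078 to 0.57, HPS5 -0.093 to 0.21, HPS1 -0.029 to 0.28, VAMP7 -0.081 to 0.12, VPS39 -0.22 to 0.10, BLOC1S1 -0.034 to 0.10, BLOC1S6 -0.075 to 0.16, HPS4 -0.045 to 0.36, AP3M1 -0.095 to 0.061, AP3S1 -0.22 to 0.35, AP1S1 -0.019 to 0.21, VPS41 -0.21 to 0.085, SYTL2 -0.19 to 0.096, RAB17 -1.08 to 0.31, SNAPIN -0.33 to 0.019, VPS11 -0.0059 to 0.29, LYST -0.13 to 0.33 and DTNBP1 -0.24 to 0.011. For the 10 genes whose 95% interval reached past 1 log2 unit, a 2-fold difference lies within the error of 3 libraries a group, and counts of 11 to 68 reads per library limit MYO7A and RAB17 further.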
